A study of Mus musculus with 10 samples.

Results

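The signal recognition particle (SRP), its receptor and the gene copies that encode its SRP54 subunit were followed in sorted mouse granulocyte-macrophage progenitors (GMPs). The 10 members were the SRP protein genes Srp9, Srp14, Srp19, Srp68 and Srp72, the receptor genes Srpra and Srprb, and the Srp54 copies Srp54a, Srp54b and Srp54c, out of 51717 genes with values. They were taken by name, but the family was selected on measured values: the share of Srp54 reads by copy and the difference between recent Mpc2 KO and WT samples. These values are therefore given below as a description, with no test. GMPs are bone marrow progenitors of neutrophils and monocytes. The WT group held 5 samples of CD45.2+ GMPs from chimeras whose donor marrow carried ROSA26 CreER+/-, and the recent Mpc2 KO group held 5 samples from chimeras whose donor marrow carried Mpc2fl/fl; ROSA26 CreER+/-. ROSA26 CreER is a tamoxifen-activated Cre that is active in all cell types and not in GMPs alone, and both groups carried it. All mice were male, of strain C57Bl6/N by the labels, and were taken after 2 weeks of tamoxifen chow, with no age given in the labels. The donor cells had matured in irradiated CD45.1 recipients, and CD45.1 cells were left out by the CD45.2 sort. Each recent Mpc2 KO sample was a pool of a pair of mice, while the WT samples were not pooled. Pooling and genotype thus cannot be told apart, and the SDs of the groups do not measure the same spread. The floxed allele was in the KO donors and not in the WT donors, so a difference that came with the floxed line and a difference that followed the deletion cannot be told apart. The comparison was made in the study to look for a change in transcription just after loss of Mpc2, a subunit of the mitochondrial pyruvate carrier.

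SRP is the ribonucleoprotein that carries secretory and membrane proteins to the endoplasmic reticulum (ER) while they are still being made. SRP54 binds the signal sequence as it leaves the ribosome and, as a GTPase, docks on the SRP receptor. SRP9 and SRP14 form the Alu domain that slows elongation, SRP19 helps SRP54 onto the RNA, and SRP68 and SRP72 bind the RNA as a pair. SRPRA is the receptor GTPase that SRP54 meets, and SRPRB anchors it in the ER membrane. GMPs make large amounts of granule proteins such as myeloperoxidase and neutrophil elastase, which enter the ER. Loss of SRP54 function in people causes a congenital neutropenia.

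The mouse genome holds 3 Srp54 genes in a row on the plus strand of chromosome 12. In GENCODE M21 on GRCm38, Srp54a (ENSMUSG00000073079) lies at chr12:55080262-55115367, Srp54b (ENSMUSG00000112449) at chr12:55155104-55189573 and Srp54c (ENSMUSG00000079108) at chr12:55230168-55263836. The coding sequence is 1515 bases in each and encodes 504 amino acids. Srp54a and Srp54b had 0 differences in it. Srp54c differed from both at 6 bases and was 99.6% identical to them. Positions are counted from 1 at the first base of the start codon, with the Srp54a base first. T501C and T945C left the amino acid as it was. G946A, T965G, A1197T and G1249A changed the amino acids at codons 316, 322, 399 and 417. The stretches that hold these 6 bases are shown because no other coding base separates the copies. Each is written 5′ to 3′ with the differing bases in capitals.

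The first stretch covers coding bases 471 to 531, across the junction of exons 7 and 8, and holds T501C.
Srp54a and Srp54b: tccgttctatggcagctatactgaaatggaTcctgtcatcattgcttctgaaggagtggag
Srp54c: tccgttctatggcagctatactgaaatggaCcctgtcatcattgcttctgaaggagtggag

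The second covers coding bases 915 to 995, across the junction of exons 11 and 12, and holds T945C, G946A and T965G.
Srp54a and Srp54b: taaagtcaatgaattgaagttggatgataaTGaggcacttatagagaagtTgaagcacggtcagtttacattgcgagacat
Srp54c: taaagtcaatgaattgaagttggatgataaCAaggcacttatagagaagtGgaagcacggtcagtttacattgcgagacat

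The third covers coding bases 1167 to 1279, inside exon 14 (chr12:55108512-55108624 in Srp54a, chr12:55183572-55183684 in Srp54b and chr12:55257435-55257547 in Srp54c, plus strand), and holds A1197T and G1249A.
Srp54a and Srp54b: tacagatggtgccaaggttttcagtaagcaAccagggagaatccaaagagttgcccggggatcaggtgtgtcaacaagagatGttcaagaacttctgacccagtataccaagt
Srp54c: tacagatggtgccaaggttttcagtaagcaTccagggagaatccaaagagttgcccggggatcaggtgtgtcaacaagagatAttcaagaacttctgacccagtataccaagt

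How far reads could be placed on a copy followed from these sequences. The deposited values were estimated reads, in which Salmon divides a fragment that matches several transcripts among them. The transcript models were cut into overlapping words of 31 bases and each word was looked up in the other copies. The main Srp54b transcript, Srp54b-201 (3646 bases), had 0 words of its own. It shared 144 coding words with Srp54a but not Srp54c, and 170 words outside the coding sequence with Srp54c but not Srp54a. A fragment could thus be placed on Srp54b alone only if it joined a stretch absent from Srp54c with one absent from Srp54a. Srp54a-202 (4498 bases) had 1026 words of its own, 23.0% of its words, all outside the coding sequence. The coding-only model Srp54a-201 (1515 bases) had 0, and Srp54c-201 (2317 bases) had 144, all of them coding. The values of a single copy are for this reason uncertain in a way that the summed reads of the copies are not.

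The libraries held 14033776 to 19745405 estimated reads on all quantified transcripts. Of 12381 genes tested with edgeR's quasi-likelihood test, 41 (0.331%) passed a Benjamini-Hochberg adjusted p of 0.05, 15 higher and 26 lower in the recent Mpc2 KO. With library size as the only scaling these were 26 higher and 20 lower. Without recent Mpc2 KO replicate 2, the count was 91. Without WT replicate 3 it was 26, and without recent Mpc2 KO replicate 3 or 4 it was 25 each. Mpc2, the targeted gene, was at 89.1 ± 26.9 CPM (estimated counts scaled to library size, SD, n = 5) in WT and 32.2 ± 10.2 CPM (SD, n = 5) in the recent Mpc2 KO, a log2 fold change of -1.46 ± 0.24 (SE) with an edgeR adjusted p of 0.0156. The groups did not overlap (two-sided exact permutation p = 0.00794, the smallest that 5 against 5 samples can give). Without recent Mpc2 KO replicate 1 its adjusted p in edgeR was 0.05002, just past the threshold. Of the GMP markers fixed for the check, 10 of 10 were detected, and their summed level was 90054 to 127331 CPM in WT and 53686 to 92006 CPM in the recent Mpc2 KO, with 0 of 10 past the test. Their median log2 fold change was -0.39, with 8 below 0 and 2 above. In edgeR 7 of the 10 had an unadjusted p under 0.05, where 10.2% of all tested genes did. Markers of other cells also moved. The macrophage genes C1qa, C1qb and C1qc rose, 3 of the 6 listed macrophage markers, and the summed list was 18.2 to 32.0 CPM in WT against 33.3 to 56.0 CPM. The other 3 were not called and did not share this rise. Their log2 fold changes were 0.18 ± 0.23 for Vcam1, 0.02 ± 0.23 for Cd163 and -0.39 ± 0.21 for Adgre1 (SE). Ighm fell, 1 of the 4 listed plasma cell markers, with a summed list of 100.03 to 142.5 CPM against 52.0 to 94.3 CPM, a sum that Ighm carried almost alone. The other plasma cell markers were low in both groups and their means were not lower in the KO: Sdc1 had a log2 fold change of 0.18 ± 0.27 (SE), Jchain was at 0.065 CPM in WT and 0.865 CPM in the KO, and Mzb1 was at 0 in every WT sample and at 0.037 CPM in the KO. The erythroid list was at 13.9 to 49.1 CPM against 27.9 to 215.7 CPM with 0 of 8 past the test. All 8 had a log2 fold change above 0, with a median of 1.74, and 5 had an unadjusted p under 0.05 in edgeR. The mature neutrophil list was at 110.8 to 196.1 CPM against 110.9 to 441.8 CPM with 0 of 6 past the test. All 6 were above 0, with a median of 1.53, and 5 had an unadjusted p under 0.05 in edgeR. The summed B cell, T cell and stem cell lists overlapped between the groups. Of these lists, 1 of 5 B cell genes (Cd79b), 0 of 4 T cell genes and 3 of 4 stem cell genes passed the filter and could be tested, and none of those tested was called by edgeR. The part of these cells in the values below was not tested, and in bulk samples fewer cells of a type and less RNA per cell cannot be told apart.

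Srp54b was the member whose level differed most between the groups. Its level in WT replicates 1 to 5 was 39.6, 35.9, 40.1, 48.5 and 43.6 CPM. In recent Mpc2 KO replicates 1 to 5 it was 24.2, 19.7, 21.01, 25.3 and 28.7 CPM. All 5 KO samples lay below the lowest WT sample. The means were 41.5 ± 4.7 and 23.8 ± 3.6 CPM (SD, n = 5 each), and the log2 fold change was -0.80 ± 0.11 (SE). Between 281 and 809 reads per sample stood behind these values.

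Srp54a, whose coding sequence is identical, was estimated at higher levels than Srp54b, and its groups met. These are estimates for the whole gene, since the coding sequence cannot be measured apart in these copies. Srp54a was at 59.3, 57.8, 53.3, 67.2 and 60.0 CPM in WT replicates 1 to 5. It was at 56.1, 49.9, 47.4, 47.4 and 48.5 CPM in recent Mpc2 KO replicates 1 to 5. Recent Mpc2 KO replicate 1 lay within the WT range and the other 4 KO samples lay below it, with a log2 fold change of -0.26 ± 0.08 (SE). Srp54c overlapped more widely. It was at 41.8, 44.2, 37.0, 46.6 and 39.4 CPM in WT, and at 38.0, 36.7, 39.2, 42.4 and 33.2 CPM in the recent Mpc2 KO. Only 2 of its 5 KO samples were under the lowest WT sample, and its log2 fold change was -0.14 ± 0.08 (SE).

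**Figure D1:**
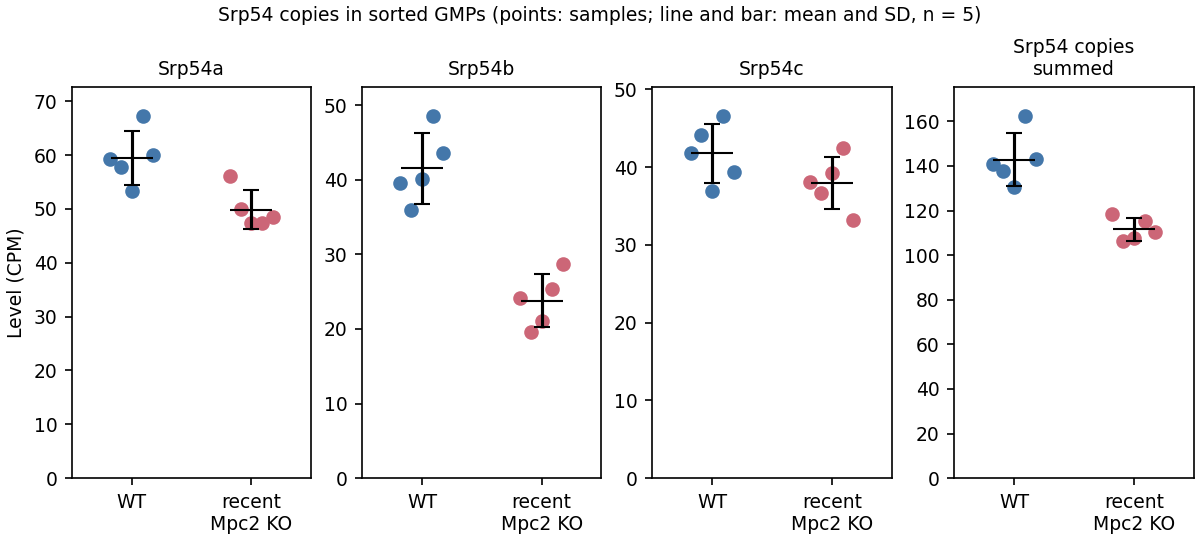
Level of each Srp54 copy and of the copies summed, in CPM on linear axes from 0, with 1 point per sample and the mean and SD of 5 samples per group. All 5 recent Mpc2 KO samples of Srp54b (19.7 to 28.7 CPM) lie below all 5 WT samples (35.9 to 48.5 CPM), while Srp54a and Srp54c overlap.

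In reads, the sum of the copies does not depend on how shared reads were divided among them. It was 140.7, 137.9, 130.4, 162.3 and 143.0 CPM in WT replicates 1 to 5. In recent Mpc2 KO replicates 1 to 5 it was 118.3, 106.3, 107.6, 115.2 and 110.5 CPM. On this scale no KO sample reached the lowest WT sample, and the summed level in the KO was 0.781 times that in WT, a log2 fold change of -0.36 ± 0.06 (SE). On the TPM scale, which also divides by transcript length, the sum does depend on that division, because the transcript models differ in length. There the sums met, at 48.0 to 64.8 TPM in WT and 49.9 to 53.0 TPM in the recent Mpc2 KO. WT replicate 3 gave the lowest of these, and the log2 fold change of the summed TPM was -0.17, less than the CPM value by over 1.5 times.

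Among the estimated Srp54 reads, Srp54a took the largest share in every sample of both groups. It held 41.7% ± 0.5 (SD, n = 5) in WT and 44.7% ± 2.6 in the recent Mpc2 KO. Of the Srp54a reads, 64.2% in WT and 62.1% in the KO were given to Srp54a-201, which has 0 words of its own. The order of the shares therefore depends on how shared reads were divided. Srp54b held 28.1%, 26.0%, 30.7%, 29.9% and 30.5% in WT replicates 1 to 5, and 20.4%, 18.5%, 19.5%, 22.0% and 26.0% in recent Mpc2 KO replicates 1 to 5. The groups did not overlap, but by a narrow margin: recent Mpc2 KO replicate 5 was at 25.99% and WT replicate 2 at 26.05%. Srp54c held 29.3% ± 1.7 in WT and 34.0% ± 2.9 in the recent Mpc2 KO, with overlap. The difference of the mean shares, KO minus WT, was -7.76 percentage points for Srp54b, 3.02 points for Srp54a and 4.73 points for Srp54c. For each read on Srp54a, Srp54b had 0.697 ± 0.052 in WT and 0.479 ± 0.081 in the recent Mpc2 KO, with no overlap. For each read on Srp54c, Srp54b had 0.998 ± 0.120 in WT and 0.634 ± 0.135 in the recent Mpc2 KO. This second ratio overlapped between the groups, at 0.813 to 1.105 in WT and 0.536 to 0.864 in the KO.

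**Figure D2:**
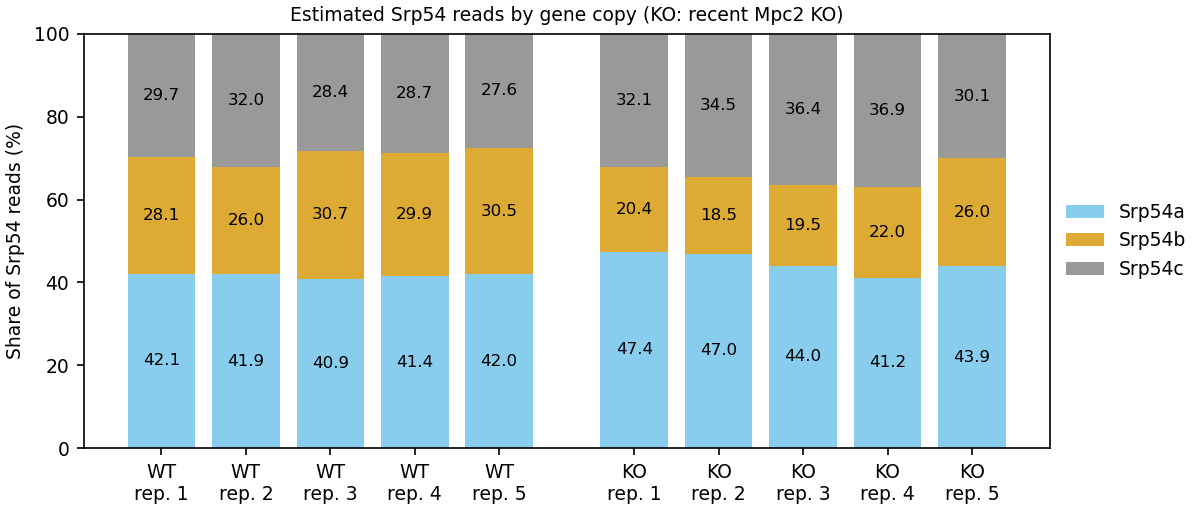
Share of the estimated Srp54 reads on Srp54a, Srp54b and Srp54c in each of the 10 samples, in percent, as stacked bars that add to the whole. The Srp54b segment spans 26.0% to 30.7% in WT and 18.5% to 26.0% in the recent Mpc2 KO.

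Per length, the copies stood in another proportion, which depends on the length of the transcripts that shared reads were given to. Srp54a-201 (1515 bases, 0 words of its own) was at 23.8 ± 2.5 TPM in WT. Srp54a-202 (4498 bases) was at 3.00 ± 0.49 TPM and Srp54b-201 (3646 bases) at 9.34 ± 1.01 TPM in WT (SD, n = 5 each). Of the summed Srp54 TPM, Srp54a held 57.3% ± 1.6 in WT and 60.1% ± 4.2 in the recent Mpc2 KO, Srp54c 26.5% ± 1.0 and 28.2% ± 2.5, and Srp54b 16.2% ± 1.4 and 11.6% ± 2.5 (SD, n = 5 each). On this scale the Srp54b groups overlapped, from 14.3% to 17.8% in WT and from 9.61% to 15.1% in the recent Mpc2 KO. The highest KO share was that of replicate 4. In that sample the short transcript Srp54b-202 (580 bases) was given 12.5 reads, which came to 2.07 TPM.

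By transcript, Srp54b-201 held 99.9% ± 0.1 of Srp54b reads in WT and 99.4% ± 1.3 in the recent Mpc2 KO, with 624 to 809 reads per WT sample and 281 to 557 per KO sample. Srp54a reads were divided between the coding-only Srp54a-201, with 64.2% ± 3.8 in WT and 62.1% ± 3.8 in the KO, and the long Srp54a-202, with 28.1% ± 3.7 and 28.2% ± 1.3. The retained-intron transcript Srp54a-203 took most of the rest. Srp54c-201 held 96.2% ± 5.2 of Srp54c reads in WT and 94.3% ± 7.2 in the KO. Srp54c-202, the Srp54c model that has the 170 words in common with Srp54b, received 0 to 102 reads per sample. The division of reads within Srp54a and within Srp54c between their transcripts differed by less than its spread between samples.

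The Alu domain pair was measured at high and similar levels in both groups. Srp9 (chr1:182124737-182132407, plus strand) was at 252, 264, 287, 326 and 269 CPM in WT replicates 1 to 5, and at 322, 254, 247, 267 and 267 CPM in recent Mpc2 KO replicates 1 to 5. Its log2 fold change was -0.04 ± 0.08 (SE). Srp14 (chr2:118475850-118479711, minus strand) ranged from 221 to 248 CPM in WT. It lay between 233 and 246 CPM in 4 KO samples and at 168 CPM in recent Mpc2 KO replicate 2, for a log2 fold change of -0.03 ± 0.09 (SE). The ratio of Srp9 to Srp14 TPM was 0.5684 ± 0.040 in WT and 0.587 ± 0.095 in the KO (SD, n = 5 each).

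The S domain proteins also overlapped between the groups. Srp19 (chr18:34330847-34336599, plus strand) ranged from 232 to 265 CPM in WT and from 196 to 270 CPM in the KO. Srp68 (chr11:116245166-116274217, minus strand) ranged from 134 to 150 CPM in WT and from 126 to 144 CPM in the KO. Srp72 (chr5:76974683-76999937, plus strand) ranged from 107 to 120 CPM in WT and from 102 to 111 CPM in the KO. The log2 fold changes were -0.10 ± 0.08 for Srp19, -0.11 ± 0.06 for Srp68 and -0.09 ± 0.06 for Srp72 (SE). Srp68 had 3 and Srp72 and Srp19 had 2 KO samples each under the lowest WT sample. The ratio of Srp68 to Srp72 TPM was 1.52 ± 0.17 in WT and 1.64 ± 0.24 in the KO.

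For the receptor, the values of the subunits lay close together. Srpra, named Srpr in the annotation (chr9:35200175-35247973, plus strand), ranged from 65.1 to 81.8 CPM in WT and from 60.8 to 70.5 CPM in the KO, with a log2 fold change of -0.10 ± 0.07 (SE). On the TPM scale its sign was the opposite, 0.10 on log2(TPM + 1), with group means of 20.4 ± 1.8 TPM in WT and 22.0 ± 2.8 TPM in the KO. The main transcript Srpra-201 was not higher in the KO, at 19.5 ± 1.7 TPM in WT and 18.97 ± 1.93 TPM in the KO. The retained-intron transcript Srpra-204 (478 bases) was given 0 to 12.8 reads per WT sample and 2.03 to 20.9 per KO sample. These came to 0.75 ± 1.25 TPM in WT and 2.84 ± 2.37 TPM in the KO. Srprb (chr9:103188032-103202137, minus strand) ranged from 80.6 to 92.9 CPM in WT and from 83.8 to 89.0 CPM in the KO, with a log2 fold change of -0.03 ± 0.06 (SE). The ratio of Srpra to Srprb TPM was 0.857 ± 0.102 in WT and 0.894 ± 0.121 in the KO. Annotated genes with near-identical sequence took little from the receptor subunit Srpra: Gm6733, a processed pseudogene that is 97.4% identical over 1285 bases, had 0 to 3 reads per sample. Srprb has an annotated gene, Gm20425, that is 100% identical over 888 bases and is not analysed here.

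Ordered by level per length over all 10 samples, Srp14 came first at 360 ± 34 TPM (SD), followed by Srp19 at 334 ± 23 TPM and Srp9 at 206 ± 12 TPM. The summed Srp54 copies (54.9 ± 5.5 TPM), Srp68 (48.3 ± 3.0 TPM), Srp54a (32.2 ± 3.4 TPM), Srp72 (30.9 ± 3.1 TPM), Srprb (24.3 ± 1.5 TPM), Srpra (21.2 ± 2.4 TPM), Srp54c (15.0 ± 1.4 TPM) and Srp54b (7.71 ± 2.10 TPM) came after. Srp14 was above Srp19 in 8 of 10 samples, and Srp54a above Srp72 in 7 of 10, so these neighbours did not differ beyond their spread. The summed copies exceeded Srp68, and Srprb exceeded Srpra, in 9 of 10 samples, and every other member exceeded the next in 10 of 10. The summed Srp54 level thus stood near that of Srp68 and below those of Srp9, Srp14 and Srp19. The places of the Srp54 copies and of their sum in this order depend on how shared reads were divided among transcripts of different length. The ratio of Srp14 to the summed copies in TPM was 6.25 ± 0.69 in WT and 6.96 ± 0.72 in the recent Mpc2 KO.

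**Figure D3:**
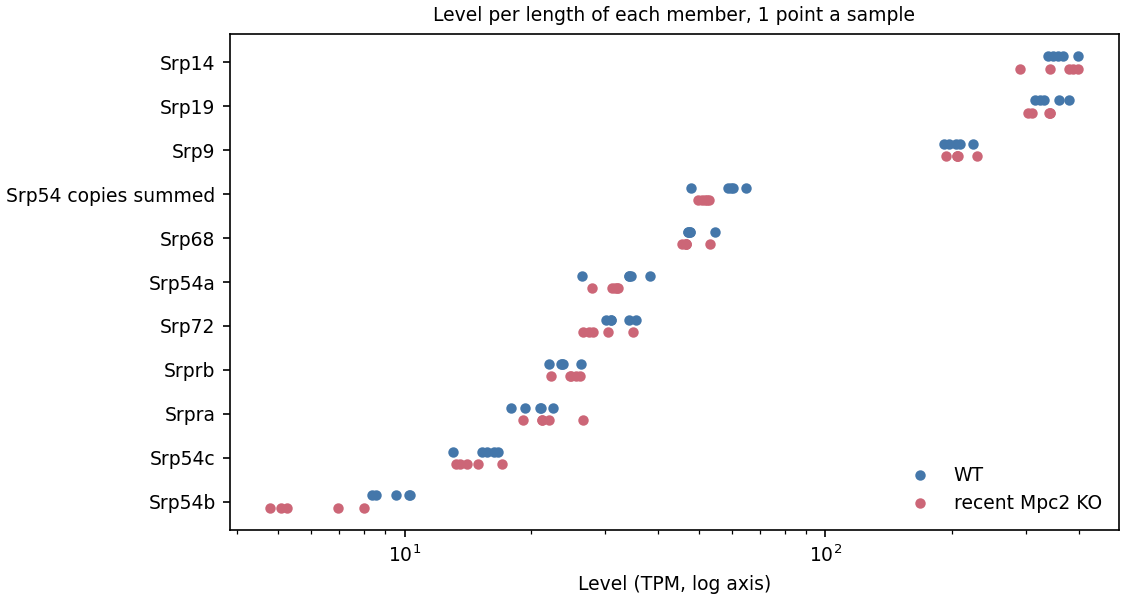
Level of each member and of the summed Srp54 copies in TPM on a log axis, with 1 point per sample and the groups in separate colours. The small subunits Srp14, Srp19 and Srp9 lie above 190 TPM in every sample, and Srp54b is the lowest member, with 4.80 to 8.02 TPM in the recent Mpc2 KO and 8.37 to 10.3 TPM in WT.

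All 10 members passed the filter on low counts. Their log2 fold changes were all below 0, with a median of -0.10, in a table where 50.4% of genes were below 0 and the median was 0.00, and the signs of the smallest ones moved with the scaling: Srp9, Srp14 and Srprb were above 0 with library size as the only scaling, and Srp9, Srpra and Srprb on the TPM scale. Both scalings moved all genes, to a median of 0.07 with 33.0% of genes below 0 for library size and a median of 0.05 with 36.5% below 0 on log2(TPM + 1), so a sign is read against that shift. With library size as the only scaling, Srp9 at 0.03, Srp14 at 0.04 and Srprb at 0.05 were under the median of all genes. Leaving out the Srp54 copies, the other 7 lay between -0.11 and -0.03. For the record, 1 of the 10 members, Srp54b, met the call rule that 0.331% of all tested genes met, and 1, Srp54b again, had no overlap between the groups in CPM, as 2.43% of all tested genes did. The members were selected on this contrast, so these counts are no test of them and nothing is read from them. On log2(TPM + 1), limma called 25 of 10333 tested genes and 0 of the 10 members, and nothing is read from that count either. On this scale the log2 fold change of Srp54b was -0.58 and that of Srp54a -0.10.

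**Figure D4:**
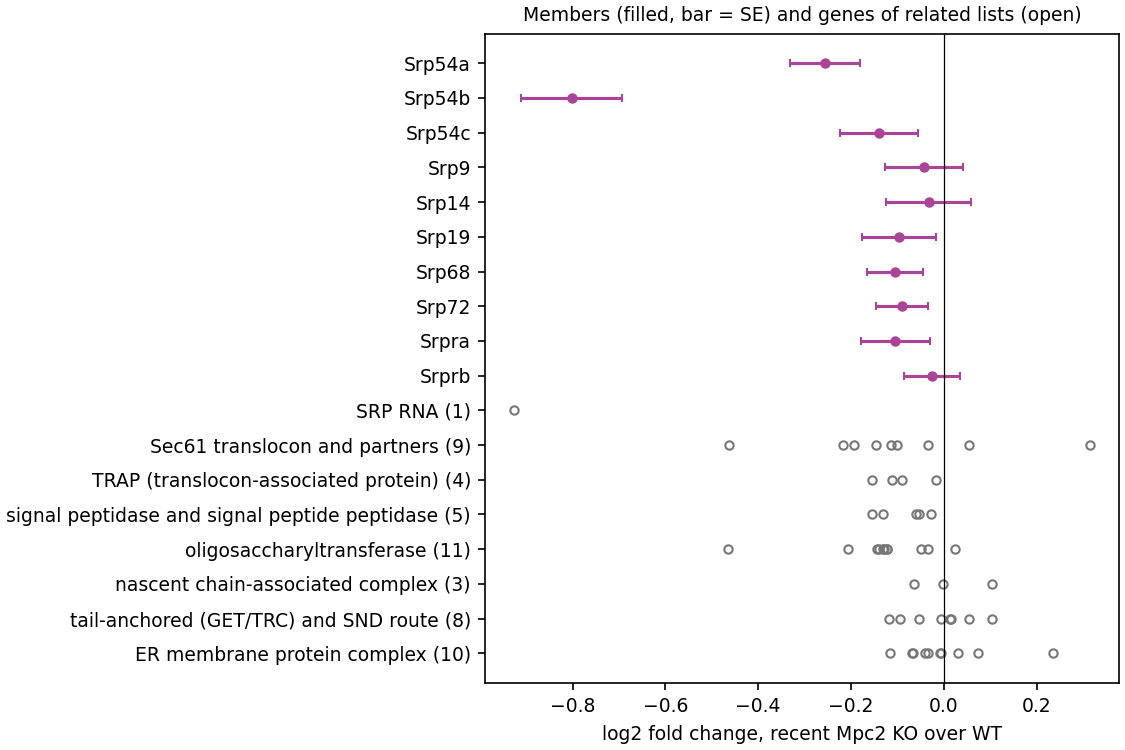
Log2 fold change of recent Mpc2 KO over WT for each member (filled, with SE) and for the tested genes of lists of related function (open, number of genes in parentheses), on counts. Srp54b at -0.80 stands apart from the other members, which lie between -0.26 and -0.03.

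SRP also holds an RNA, and the steps before and after it have their own genes. Of 54 genes in 8 lists for these steps, 51 were tested and 0 passed the edgeR test at an adjusted p of 0.05 in either direction, with 7 at an unadjusted p under 0.05. Of all 12381 tested genes, 0.331% were called and 1268 (10.2%) had an unadjusted p under 0.05, so these counts are near the background. DESeq2 called 1, Rpn1. Their median log2 fold change was -0.06 beside 0.00 for all genes, and 40 of 51 were below 0, where 50.4% of all genes were. With library size as the only scaling 23 of 51 were below 0, where 33.0% of all genes were, and the list median of 0.01 stood beside 0.07 for all genes. The SRP RNA gene Rn7s2 was at 23 to 44 reads in WT and 5 to 26 in the recent Mpc2 KO, with a log2 fold change of -0.93 ± 0.35 (SE, edgeR adjusted p = 0.371). SRP RNA carries no poly(A) tail and the libraries were primed on poly(A), and these few reads do not measure the RNA, and Rn7s1 is not analysed here.

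The translocon receives the nascent chain from the receptor. None of the 9 tested genes of the Sec61 list passed the edgeR test. Of these 9, 2 had an unadjusted p under 0.05, as did 10.2% of all genes, and the median was -0.11. The log2 fold changes of the 9 ran from -0.46 to 0.31, with 2 above 0 and 7 below. The gene of this list with the highest mean TPM was Sec61b, a small subunit of the channel, though not with the highest CPM. Sec61b was at 671 ± 83 CPM in WT and had a log2 fold change of -0.10 ± 0.12 (SE). The 4 TRAP genes, which assist the channel, had a median of -0.10, and Ssr2 among them -0.09 ± 0.08. The 5 tested signal peptidase genes, which remove the signal sequence, had a median of -0.06, with Sec11c, a catalytic subunit, at -0.06 ± 0.07. The 11 tested oligosaccharyltransferase genes, which attach N-glycans in the ER lumen, had a median of -0.13, with 10 below 0. Ost4, which had the highest mean TPM of this list, was the 1 gene above 0, at 0.02 ± 0.10.

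For factors that act beside SRP or without it, the medians were as follows. The 3 genes of the nascent chain-associated complex, which competes with SRP for the emerging chain, had a median of 0.00, with Naca at -0.06 ± 0.08 (SE). The 8 genes of the tail-anchored and SND routes had a median of 0.00, with 4 above 0 and 4 below, and Tmem208 at 0.10 ± 0.06. The 10 genes of the ER membrane protein complex, which inserts membrane segments, had a median of -0.02, with 3 above 0 and 7 below. Emc4 was among those above, at 0.07 ± 0.07. Whether these medians differ from those of the other lists was not tested.

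The stretch of chromosome 12 around the copies was then examined, since these genes lie in a repeated unit. Of 14 other tested genes with a start within 1 Mb of a copy, 1 passed the edgeR test, against 0.331% of all genes. It was Fam177a (chr12:55124469-55142104, plus strand), which lies between Srp54a and Srp54b and starts 30.6 kb before Srp54b. Fam177a was at 21.4, 24.7, 24.5, 25.6 and 18.7 CPM in WT and at 15.2, 16.9, 14.6, 15.6 and 14.9 CPM in the recent Mpc2 KO. All KO samples lay below all WT samples, with a log2 fold change of -0.57 ± 0.10 (SE) and an edgeR adjusted p of 0.0172. That call was lost when WT replicate 2, 3 or 4 or recent Mpc2 KO replicate 3, 4 or 5 was left out, with an edgeR adjusted p of 0.0543 to 0.0759. Without recent Mpc2 KO replicate 2, Snx6 was called as well, with 2 genes in all.

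Fam177a has a copy of its own. The gene 1700047I17Rik2 (chr12:55199592-55217168, plus strand) lies between Srp54b and Srp54c, and its 3863-base transcript is 100% identical to a stretch of the 3922-base Fam177a transcript. It was listed at 0 in all 10 samples, so reads from the 2 genes cannot be told apart. This second gene was looked up after its values were seen. The nearest tested genes outside the copies were not called: 2700097O09Rik on the Srp54a side had a log2 fold change of -0.11 ± 0.14 and Ppp2r3c on the Srp54c side 0.10 ± 0.07 (SE). The median over the 14 was 0.02. No DNA was measured, so a lower level per gene copy and fewer copies of this repeated unit in the KO donors cannot be told apart.

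**Figure D5:**
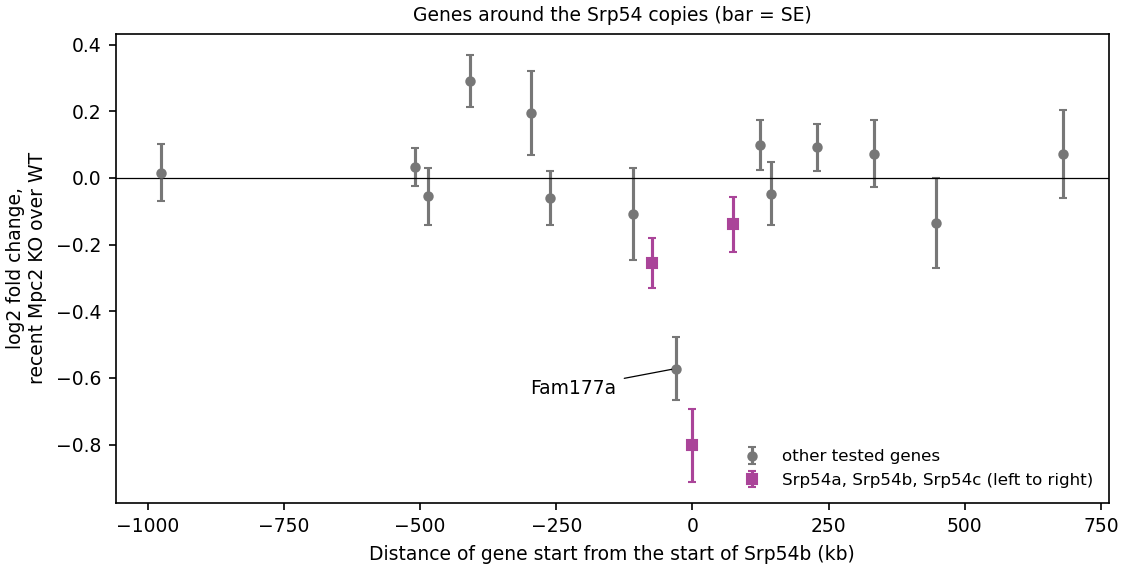
Log2 fold change of recent Mpc2 KO over WT, with SE, for the Srp54 copies (squares) and the 14 other tested genes within 1 Mb of a copy (circles), by distance of the gene's start from the start of Srp54b in kb. Srp54b at -0.80 and Fam177a at -0.57 lie lowest, and the genes on either side lie between -0.13 and 0.29.

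The genes whose pattern over the 10 samples was most like that of each copy were found by the root mean square (RMS) difference of log2 CPM after centring each gene on its mean, which is a description with no test. For Srp54b these were Hyou1, an ER chaperone, with a difference of 0.19, Wdfy1 with 0.22 and Pld4 with 0.23, where the pattern of Srp54b itself had an RMS size of 0.44. Each of these genes was itself called lower in the KO by edgeR, with log2 fold changes of -0.51, -0.64 and -0.69. Their likeness to Srp54b thus includes the group difference that the members were selected on. For Srp54a they were Zfp607a, Mpp1 and Uck2, with 0.04 to 0.07 against its own 0.16. For Srp54c they were Jmjd6, Fam72a and Rabggta, with 0.07 to 0.08 against 0.14. For the summed copies they were Map3k20, Rnpep and Zfp607a, with 0.07 to 0.08 against 0.20. No gene other than Zfp607a was in more than 1 of these lists.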

How the data were processed

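RNA-seq libraries (SMARTseq V4) of 10 GMP samples were analysed. The deposited values were, per the labels and the study's methods, made by the authors with Salmon 1.5.1 on GENCODE M27. Per transcript, the authors deposited estimated counts (reads divided among the transcripts they match, none normalized) and TPM. A deposited table of the authors' own DESeq2 comparison (fold changes and p-values, DESeq2 2.11.40.6 per the processing notes) was not used.

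Transcripts were matched to GENCODE M21 (GRCm38) by Ensembl identifier without version. Of 140789, 137161 (97.4%) matched, and the others held 0.348% to 0.390% of reads. All 45 quantified member transcripts had the same length in both. Positions and sequences are from M21. Values were summed per gene, and counts were rounded. Genes were kept by filterByExpr (edgeR 4.0.16, minimum count 10), scaled by TMM and tested with glmQLFit and glmQLFTest, WT against recent Mpc2 KO, over all 5 samples per group with no covariate. P-values were adjusted by Benjamini-Hochberg. The step was tested on simulated data. CPM values were scaled by TMM. Alternatives were DESeq2 1.42.0, limma 3.58.1 on log2(TPM + 1) and log2(TPM + 0.1) for genes with mean TPM of at least 1, other scalings and filters, a replicate block and each sample left out. Identity was found with BLAST 2.17.0 (at least 90% over 300 bases). No 2 libraries were identical. Nothing in the labels ties replicate numbers across groups. Samples were grouped by GEO's titles. SD bars cover the spread between samples, with each KO sample a pool of mice and the WT samples not pooled. SE bars belong to a log2 fold change. In edgeR this SE was the size of the log2 fold change divided by the square root of its quasi-likelihood F statistic.

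The members and lists were chosen with earlier results of these data known. The genes named were the 10 members, Mpc2, in each list every called gene or otherwise the one with the highest mean TPM, called or nearest genes beside the copies, the 3 genes most alike in pattern to each copy, and near-identical genes with at least 3 reads in a sample.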

Additional observations from a re-analysis of the deposited data

Results flagged for a closer look

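Of 30 sets of 5 values examined (the CPM of each member, of the summed copies and of Mpc2, and the share of reads of each Srp54 copy, in each group), 2 held a sample whose gap to its nearest neighbour took up more of the range than Dixon's limit of 0.71 for 5 samples. Chance alone gives about 1 in 20, or 1.5 here. The Srp9 level in recent Mpc2 KO replicate 1 was 322 CPM, above the 247 to 267 CPM of the other KO samples. It lay within the WT range, whose highest sample was at 326 CPM. The Srp14 level in recent Mpc2 KO replicate 2 was 168 CPM, below the 233 to 246 CPM of the other KO samples, and was the lowest of all 10 samples. The cause was not tested.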

How the results depend on the processing

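Called genes numbered 41, and 206 with no filter on low counts, 156 with DESeq2, 25 with limma on log2(TPM + 1), 24 on log2(TPM + 0.1) and 25 to 91 with 1 sample left out. The Mpc2 log2 fold change was -1.35 (limma adjusted p = 0.130) on log2(TPM + 1), -1.38 (limma adjusted p = 0.138) on log2(TPM + 0.1) and -1.60 to -1.31 with 1 sample left out. The summed Srp54 copies moved from -0.36 to -0.17 on log2(TPM + 1) and -0.17 on log2(TPM + 0.1). As a share of TPM in place of reads, Srp54b moved from -7.76 to -4.55 percentage points and Srp54c from 4.73 to 1.75. Genes of the related lists past the test were 1 with DESeq2, and of the neighbourhood 0 with limma on either TPM scale and 0 to 2 with 1 sample left out. Values near 0 changed sign: Srp9 was at 0.02 without WT replicate 4, Srp14 at 0.06 without recent Mpc2 KO replicate 2, and the median of the related lists, -0.06, was 0.01 with library size as the only scaling, where the median of all genes was 0.07. Srp54a, Srp54b and Srp54c were below 0 under every alternative run, but Srp54a was -0.10 on both TPM scales in place of -0.26 and Srp54b -0.58 on log2(TPM + 1) in place of -0.80. No gene outside the copies was near-identical to Srp54, so adding such genes to the shares gave no other value. The cause of these shifts was not tested.

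Replicate numbers did not pair the samples: the correlation of deviations from the group means between same-numbered samples ran from -0.18 to 0.06. With a replicate block, edgeR called 20 genes, 0 of them in the neighbourhood, and Mpc2 had a log2 fold change of -1.46 (adjusted p = 0.0577).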
